A study of Mus musculus with 8 samples.

Results

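The effect of losing Prdm16 was set against the effect of losing its PR domain, locus by locus, in mouse embryoid bodies. All 8 libraries of the series entered, and 16623 of 52281 named loci were tested, those with at least 10 normalised fragments in at least 2 libraries. The Prdm16 effect is the log2 level in the Prdm16 knockout minus that in its own control, the PR domain effect is the same for the PR domain knockout, and the difference is the first minus the second. A positive difference therefore means that a locus stood higher after loss of Prdm16, relative to its control, than after loss of the PR domain.

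The libraries came from embryoid bodies on day 9 after embryonic stem cells of C57BL/6 background began to differentiate, grown in a serum-containing medium. The Prdm16 knockout and a first wild-type set made up one pair, and the PR domain knockout, whose title names exon 4, and a second wild-type set made up the other. Each of the 4 groups held 2 libraries, with 6273789 to 9086885 fragments on named loci per library. The labels do not say whether replicates were separate cultures, so the p-values below reflect the spread of these libraries and no more, and they name no clones, so that a knockout and the line that carries it cannot be told apart.

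PRDM16 is a zinc finger transcription regulator that binds DNA and recruits co-regulators such as CtBP proteins, and the PR domain at its N terminus resembles the SET domain of histone methyltransferases. It is known for roles in brown fat, blood stem cells, neural progenitors, craniofacial tissue and the heart. Embryoid bodies are aggregates of stem cells that form derivatives of all germ layers, including beating heart muscle, endothelium, primitive blood and yolk sac-like endoderm.

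The targeted gene was scarce. Prdm16 (chr4:154316125-154636873 in mm10) stood at 24.4 and 26.3 (Prdm16 control), 11.2 and 1.1 (Prdm16 knockout), 44.6 and 22.7 (PR domain control) and 23.3 and 15.7 (PR domain knockout) normalised fragments, which are fragment numbers divided by a factor per library. The highest library was 1 of the 2 PR domain controls, and the Prdm16 knockout libraries were the lowest. The Prdm16 effect on the gene was -2.38 ± 0.50 (SE, adjusted p = 0.00031) in limma, whereas the PR domain effect was -0.71 ± 0.50 (SE, adjusted p = 0.38) and the difference -1.68 ± 0.71 (SE, adjusted p = 0.11). A value for the whole gene does not show whether exon 4 was absent.

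Of the 16623 loci, 2728 (16.4%) differed between the knockout effects at an adjusted p below 0.05 in limma, 1430 of them (8.60%) higher and 1298 (7.81%) lower. A difference of 2-fold or more was reached by 216 of the higher (1.30%) and 333 of the lower loci (2.00%). The Prdm16 effect alone was called at 6502 loci (39.1%), raised at 18.0% of all loci and lowered at 21.1%. The PR domain effect was called at 3190 (19.2%), raised at 8.48% and lowered at 10.7%. These shares, and those of the difference, are the reference for the counts of gene lists below. The control sets differed from each other at 5481 loci (33.0%), and the knockout groups did so at 6213 (37.4%). These comparisons share libraries, so their counts are set side by side as a description. Fewer loci were called in the difference by DESeq2's Wald test on recovered fragments (1189), without the filter on low values (1642) and on the FPKM scale (199). The share of calls that was higher depended on the scaling, at 52.4% with the authors' values, 58.6% after TMM scaling and 37.0% when libraries were scaled to equal totals. For the PR domain effect it was 44.2% with the authors' values and 54.4% with DESeq2's size factors. For the Prdm16 effect it was 45.9% with the authors' values, 55.0% after TMM scaling, 52.9% with DESeq2's size factors and 39.3% with equal totals.

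Loci called in the difference were sorted by which effect carried it, using a margin of 1.5-fold for an effect small enough to be set aside. At 1322 of the 2728 loci (48.5%), called here the Prdm16 side, the Prdm16 effect was called and the PR domain effect was not. The 95% interval of the PR domain effect also lay inside that margin. The reverse, the PR domain side, held 298 loci (10.9%). Both effects were called with opposite signs at 212 loci (7.77%), and with the same sign but unequal size, here graded, at 442 (16.2%). Loci with both effects called were placed by sign alone, even where 1 effect lay inside the margin. The remaining 454 loci (16.6%) could not be placed. Without replicate 1 of the PR domain control, the PR domain side held 196 loci and the graded class 254, and without replicates 2 of that control or 1 of the PR domain knockout the graded class held 255 and 288. Separately, at 1022 loci both effects were called with the same sign and the interval of their difference lay inside the margin, 405 of them raised and 617 lowered in both knockouts. That split by direction is for the authors' values only, and the share of higher calls in each effect depended on the scaling.

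**Figure D1:**
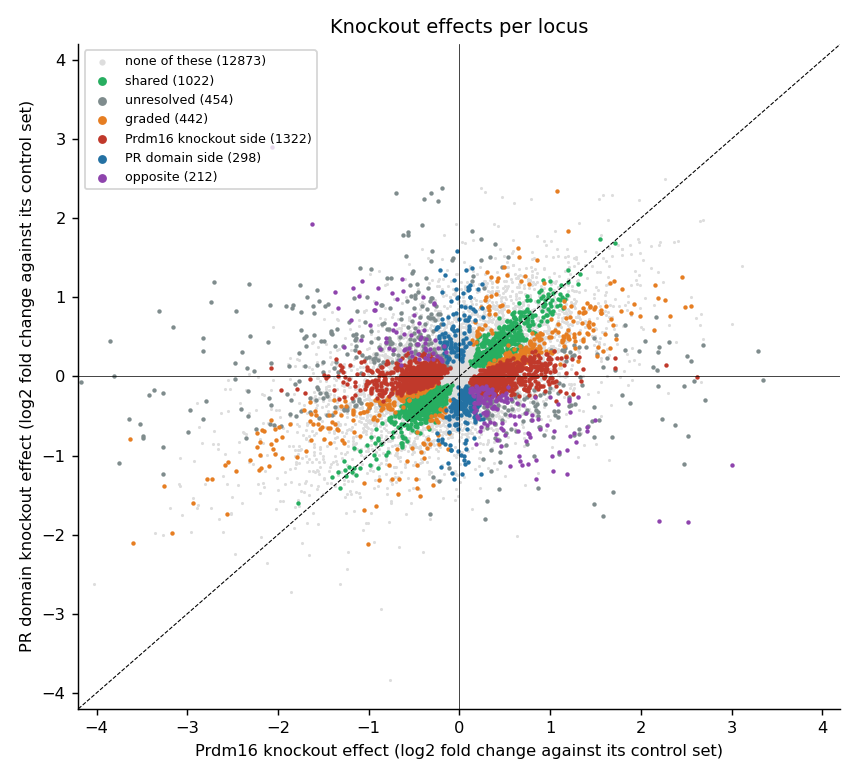
Each point is 1 of the 16623 loci, with the Prdm16 effect on the x axis and the PR domain effect on the y axis, both as log2 fold changes against the own control set; the dashed line marks equal effects and 14 loci lie outside the axes. The 1322 loci of the Prdm16 side spread along the x axis, the 298 of the PR domain side along the y axis, and the 212 opposite loci fill the upper left and lower right.

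A second sorting asked which groups stood apart. The difference between the effects is also the difference between the knockout groups minus that between the control sets, so a locus can be called although both knockouts stand at like levels. That was so for 741 loci (27.2%), at which the control sets differed and the interval between the knockout groups lay inside 1.5-fold. The reverse, with like controls (inside 1.5-fold) and unequal knockouts, held for 1189 loci (43.6%, or 776 loci without replicate 1 of the PR domain control). Loci that met both rules were counted only under the reverse. A pair inside 1.5-fold could still be called as different. At 387 loci (14.2%) both pairs were called and neither interval lay inside 1.5-fold. Resting on the controls was found at 405 of the 1322 loci of the Prdm16 side, at 104 of the 298 of the PR domain side and at 63 of the 212 opposite loci.

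**Figure D2:**
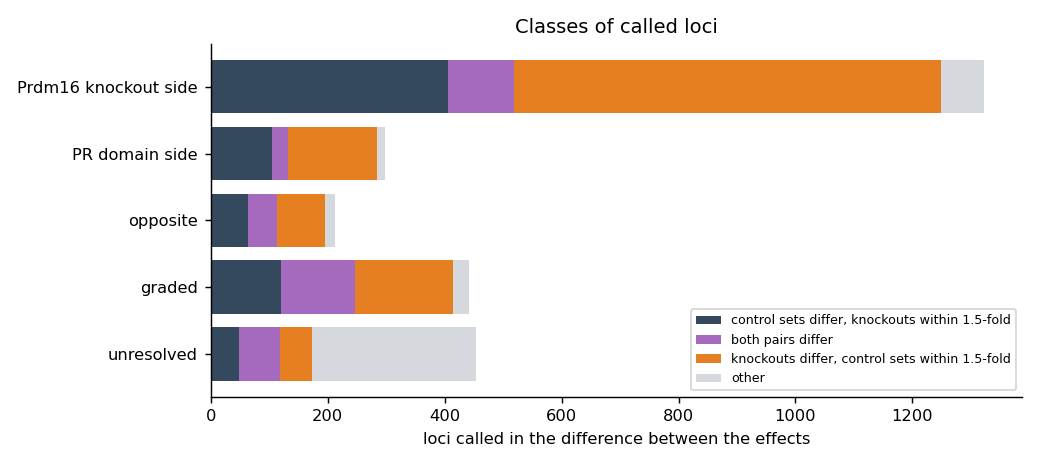
Bars count the 2728 loci called in the difference by which effect carried it (rows) and by which groups stood apart (colours). In the Prdm16 side, 731 of 1322 loci had like controls and unequal knockouts, against 405 with unequal controls and like knockouts.

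Immediate early genes, which are transcribed within minutes of a stimulus and mostly encode transcription factors and feedback regulators, were the list with the highest median difference. Of 26 members tested, 23 were higher in the difference (8.60% of all loci) and 3 did not pass, with a list median of 1.61 against -0.0010 for all loci. They rose after loss of Prdm16 (23 of 26, 18.0% of all loci) and fell after loss of the PR domain (21 of 26, 10.7% of all loci). Of the 23, 19 were in the opposite class, which held 7.77% of all loci called in the difference. In the controls, 22 of 26 were lower in the Prdm16 control than in the PR domain control (16.3% of all loci), with a median of -1.15, whereas the knockout groups were closer, with a median of 0.39 and 18 of 26 higher in the Prdm16 knockout (18.7% of all loci). By the rule above, 14 of the 23 rested on the control sets (27.2% of all loci called in the difference), 2 on the knockouts (43.6%) and 7 on both (14.2%).

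Members that moved together were looked up in RefSeq promoters on GRCm38.p6 for short motifs that regulators of such genes bind. Over the 250 bases before the start, on both strands, 3 of 19 called members with a RefSeq promoter held the cyclic AMP response element TGACGTCA, against 1.77% of all 27025 genes with one. The variant TGACGCAA was in 1 of 19 (0.507% of all genes), the CArG box in 3 of 19 (1.62%) and the AP-1 site TGACTCA in 0 of 19 (5.16%). A match describes these letters and not a bound site. Windows of up to 40 bases on each side are shown for 5 of the members, read 5′ to 3′ on the gene's strand, with the first match in capitals. The Srf window holds a further CArG box, left in lower case.
Btg2 (chr1:134079274-134079361, minus strand): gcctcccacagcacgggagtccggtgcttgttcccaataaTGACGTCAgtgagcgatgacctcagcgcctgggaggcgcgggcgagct
Dusp1 (chr17:26508568-26508655, minus strand): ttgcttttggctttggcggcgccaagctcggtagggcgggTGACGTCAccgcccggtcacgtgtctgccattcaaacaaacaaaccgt
Fosb (chr7:19310058-19310145, minus strand): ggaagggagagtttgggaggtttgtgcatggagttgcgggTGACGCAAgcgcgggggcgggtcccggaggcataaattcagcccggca
Egr2 (chr10:67537757-67537846, plus strand): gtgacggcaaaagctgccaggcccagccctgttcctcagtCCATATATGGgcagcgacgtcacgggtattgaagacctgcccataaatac
Srf (chr17:46556195-46556284, minus strand): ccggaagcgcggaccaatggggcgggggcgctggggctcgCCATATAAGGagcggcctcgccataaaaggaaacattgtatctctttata

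Fos, a subunit of the AP-1 factor (chr12:85473890-85477273), stood at 1833 and 1898 (Prdm16 control), 4976 and 4943 (Prdm16 knockout), 6840.3 and 6846 (PR domain control) and 4299 and 4459 (PR domain knockout) normalised fragments. The Prdm16 control libraries were the lowest, the PR domain control libraries the highest, and both knockouts lay between them, with no overlap between groups. Its Prdm16 effect was 1.41 ± 0.04 (SE, adjusted p = 7.9e-23) in limma and its PR domain effect -0.64 ± 0.04 (SE, adjusted p = 4.4e-14), a difference of 2.05 ± 0.05 (SE, adjusted p = 5.8e-23). The control sets differed by -1.87 ± 0.04 and the knockout groups by 0.18 ± 0.04.

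The same order of groups was seen for Zfp36, whose protein promotes decay of AU-rich mRNAs (chr7:28376784-28380253). Its values were 571 and 546 (Prdm16 control), 1356 and 1325 (Prdm16 knockout), 2161 and 2092 (PR domain control) and 1304 and 1296 (PR domain knockout). The knockout groups differed by 0.04 ± 0.05 (SE, adjusted p = 0.56) in limma, the control sets by -1.93 ± 0.05 (SE, adjusted p = 3.3e-23), and the effects by 1.97 ± 0.07 (SE, adjusted p = 7.3e-19). Egr2, a zinc finger factor, stood at 99.7 and 113 (Prdm16 control), 311 and 290.5 (Prdm16 knockout), 447 and 472 (PR domain control) and 321 and 304 (PR domain knockout), again with both knockouts between the controls. Its difference was 2.05 ± 0.14 (SE, adjusted p = 1.8e-12) in limma, with -2.10 between the controls and -0.05 between the knockouts.

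Fosb, Egr1 and Junb rested on the controls as well by that rule, with differences of 1.97, 1.66 and 1.87. Their controls differed by -1.55, -1.37 and -1.49. Their knockout groups were called apart too, by 0.42, 0.30 and 0.38, inside the 1.5-fold margin. Atf3, a stress-induced factor, and Btg2, an antiproliferative regulator, differed in both pairs by more than that margin. Btg2 values were 1180.0 and 1167 (Prdm16 control), 2320.1 and 2434 (Prdm16 knockout), 2551 and 2513 (PR domain control) and 1193 and 1320.1 (PR domain knockout). Here the Prdm16 control and the PR domain knockout formed the low pair of groups and the other two the high pair, with -1.11 ± 0.05 (SE, adjusted p = 2.2e-17) between the controls and 0.92 ± 0.05 (SE, adjusted p = 2e-15) between the knockouts in limma. Arc, a synaptic immediate early gene, had a difference of 2.42 ± 0.18 (SE, adjusted p = 1.6e-11) in limma and at most 378 normalised fragments in a library.

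Maff, a small Maf factor (chr15:79346621-79359076), behaved otherwise. Its values were 299 and 293 (Prdm16 control), 687 and 687 (Prdm16 knockout), 279 and 263 (PR domain control) and 213 and 233 (PR domain knockout). The Prdm16 knockout stood apart, more than 2-fold above each of the other 6 libraries. The controls differed by 0.13 ± 0.09 (SE, adjusted p = 0.29) in limma and the knockouts by 1.62 ± 0.09 (SE, adjusted p = 8.7e-16). Klf2, a shear-responsive endothelial factor that is also induced early (chr8:72319033-72321656), had 279 and 247 (Prdm16 control), 283 and 252 (Prdm16 knockout), 660.2 and 645 (PR domain control) and 258 and 297 (PR domain knockout), so that only the PR domain control stood high. Its PR domain effect was -1.23 ± 0.09 (SE, adjusted p = 1.3e-11) in limma and its Prdm16 effect 0.02 ± 0.09, with an interval of -0.17 to 0.21.

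**Figure D3:**
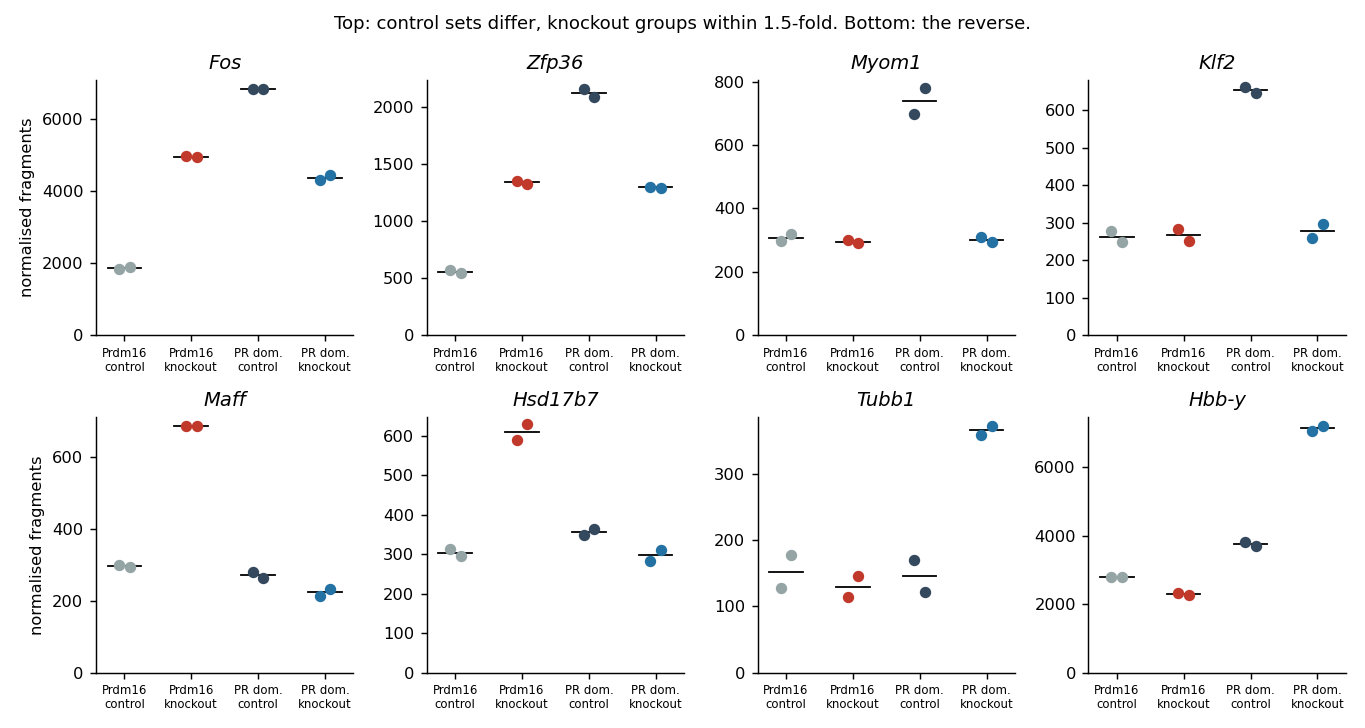
Normalised fragments per library (points) and group means (bars) for 8 genes on linear axes that start at 0, with 2 libraries a group. In the upper row (Fos, Zfp36, Myom1, Klf2) the knockouts lie within 1.5-fold of each other while the controls do not; in the lower row (Maff, Hsd17b7, Tubb1, Hbb-y) 1 knockout stands apart.

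Heart muscle genes followed by list median. Of 28 tested genes of cardiomyocyte contraction, 18 were higher (8.60% of all loci) and 1 lower (7.81%) in the difference, with a median of 0.59. In the PR domain knockout 23 of them fell (10.7% of all loci), against 15 (21.1% of all loci) in the Prdm16 knockout, with medians of -0.92 and -0.24. Lower levels in the Prdm16 control than in the PR domain control were called for 23 (16.3% of all loci). Of the 19 members called in the difference, 12 rested on the controls, against 27.2% of all loci so called. The summed level of the list was 24263 to 25411 in the Prdm16 control, 23214 to 23380 in the Prdm16 knockout, 45217 to 45619 in the PR domain control and 27448 to 27501 in the PR domain knockout. In bulk RNA, fewer heart muscle cells and less RNA per cell cannot be told apart.

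On the PR domain side were 6 of them. Myom1, an M-band protein (chr17:71002633-71126856), stood at 296 and 319.8 (Prdm16 control), 299 and 289 (Prdm16 knockout), 699 and 781 (PR domain control) and 309 and 294 (PR domain knockout). The PR domain control was high and the other 6 libraries overlapped. Its PR domain effect was -1.29 ± 0.08 (SE, adjusted p = 4.8e-13) in limma and its Prdm16 effect -0.06 ± 0.08 (95% interval -0.24 to 0.11). Actn2, a Z-disc actinin (chr13:12269426-12340760), had 119 and 124 (Prdm16 control), 138 and 149.6 (Prdm16 knockout), 339.7 and 316 (PR domain control) and 138 and 139 (PR domain knockout), with a difference of 1.48 ± 0.17 (SE, adjusted p = 1.1e-07) in limma. Ldb3, another Z-disc protein, differed by 1.16 ± 0.19 (SE, adjusted p = 5.6e-05).

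Myosin heavy chains and cardiac actin fell in both knockouts but unequally. Myh6 and Myh7, which share 1 locus in the table (chr14:54941921-54966927), stood at 2329 and 2434 (Prdm16 control), 1841 and 1684 (Prdm16 knockout), 6052 and 6529 (PR domain control) and 2306 and 2095 (PR domain knockout). Their Prdm16 effect was -0.43 ± 0.05 (SE, adjusted p = 3.2e-08) in limma and their PR domain effect -1.52 ± 0.05 (SE, adjusted p = 1.6e-19). Actc1 was similar, at -0.47 ± 0.05 and -1.42 ± 0.05. For both loci the PR domain control was the only group that stood high.

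Cardiac transcription factors were split. Of 19 tested, 11 were higher (8.60% of all loci) and 3 lower (7.81%) in the difference, with a median of 0.46. In the Prdm16 knockout 8 rose (18.0% of all loci) and 7 fell (21.1%). Tbx20, a T-box factor of the developing heart (chr9:24718138-24774303), stood at 826 and 778 (Prdm16 control), 1182 and 1189 (Prdm16 knockout), 1111 and 1126 (PR domain control) and 1104 and 1069 (PR domain knockout). The Prdm16 control was low and the other 3 groups lay closer together, with a Prdm16 effect of 0.56 ± 0.06 (SE, adjusted p = 1.5e-09) in limma and a PR domain effect of -0.04 ± 0.06. Hand1, a factor of the heart tube and extraembryonic mesoderm (chr11:57828705-57832818), had 931 and 923 (Prdm16 control), 1412 and 1339 (Prdm16 knockout), 783 and 774 (PR domain control) and 618 and 664 (PR domain knockout). It rose after loss of Prdm16 (0.57 ± 0.06 (SE, adjusted p = 4.6e-09) in limma) and fell after loss of the PR domain (-0.28 ± 0.06 (SE, adjusted p = 0.00068)), and the controls lay within the 1.5-fold margin of each other. Osr1, a factor of early mesoderm, was among the 3 lower members and stood at 23.3 and 18.8 (Prdm16 control), 1.24 and 3.3 (Prdm16 knockout), 19.3 and 20.6 (PR domain control) and 26 and 30.6 (PR domain knockout), a call that DESeq2's Wald test did not give.

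Endothelial genes fell at 15 of 28 loci after loss of Prdm16 (21.1% of all loci) and at 23 of 28 after loss of the PR domain (10.7%). In the difference 8 were higher (8.60% of all loci) and 1 lower (7.81%), with a median of 0.24, and 5 were on the PR domain side. Sox17, an arterial and endoderm factor (chr1:4490931-4497354), stood at 153 and 164 (Prdm16 control), 145 and 176 (Prdm16 knockout), 97.4 and 131 (PR domain control) and 61 and 52.1 (PR domain knockout). The PR domain knockout was the lowest group, and the Prdm16 groups overlapped, with effects of -0.99 ± 0.16 (SE, adjusted p = 1.9e-05) and 0.02 ± 0.16 (SE, adjusted p = 0.95) in limma. Flt1, a VEGF receptor, had a PR domain effect of -0.48 ± 0.07 and a Prdm16 effect of 0.17 ± 0.07. Nos3 and Bcl6b were of the shared class instead, at -1.41 and -1.27 for Nos3 and -1.25 and -1.26 for Bcl6b.

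Mecom, the closest relative of Prdm16, which also carries a PR domain (chr3:29951296-30548008), stood at 316 and 310.4 (Prdm16 control), 285 and 263 (Prdm16 knockout), 534 and 463 (PR domain control) and 288 and 269.6 (PR domain knockout). Its PR domain effect was -0.83 ± 0.09 (SE, adjusted p = 2.4e-08) and its Prdm16 effect -0.19 ± 0.09 (SE, adjusted p = 0.092) in limma. The difference was 0.64 ± 0.13 (SE, adjusted p = 0.00055), and the knockouts differed by -0.02 ± 0.09, so that it rested on the controls. Of 22 tested PRDM family members and PRDM16 partners, 5 were higher (8.60% of all loci) and 1 lower (7.81%) in the difference. Cebpb, a partner of PRDM16 in fat cells, was low, at 27.6 and 32 (Prdm16 control), 75.7 and 78.1 (Prdm16 knockout), 53.7 and 69.1 (PR domain control) and 51.1 and 67 (PR domain knockout), and rose in the Prdm16 knockout (1.34 ± 0.22 (SE, adjusted p = 8.8e-06) in limma) with a PR domain effect of -0.06 ± 0.22. Of 32 enzymes and readers of histone H3 lysine 4 and lysine 9 methylation, 2 were higher and 4 lower in the difference, a share near the 16.4% of all loci. Kmt2a, an H3 lysine 4 methyltransferase, stood at 1082 and 993 (Prdm16 control), 712 and 716 (Prdm16 knockout), 911 and 949.5 (PR domain control) and 971 and 873 (PR domain knockout) and fell in the Prdm16 knockout, with a difference of -0.52 ± 0.09 (SE, adjusted p = 7.7e-05) in limma.

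Of 20 ribosome biogenesis genes tested, 12 were lower in the difference (7.81% of all loci) and 8 did not pass, with a median of -0.36. Of the 12, 9 were on the Prdm16 side (48.5% of all loci called in the difference), 3 were graded (16.2%) and 10 rested on the controls (27.2%). After loss of Prdm16 17 fell (21.1% of all loci), and after loss of the PR domain 4 (10.7%), with medians of -0.50 and -0.08. All 20 were higher in the Prdm16 control than in the PR domain control (16.7% of all loci), and the median between the knockouts was 0.08. Nop2, a ribosomal RNA methyltransferase (chr6:125131909-125144753), stood at 732 and 736 (Prdm16 control), 516 and 533 (Prdm16 knockout), 473 and 447 (PR domain control) and 499 and 486 (PR domain knockout). The Prdm16 control was high and the other 3 groups lay closer together, with a control difference of 0.67 ± 0.07 (SE, adjusted p = 3.7e-09) in limma and a knockout difference of 0.09 ± 0.07. Ccnd1, a G1 cyclin (chr7:144929931-144939925), was likewise highest in the Prdm16 control, at 701 and 688 (Prdm16 control), 333 and 318 (Prdm16 knockout), 426 and 449 (PR domain control) and 368 and 406 (PR domain knockout), with a difference of -0.91 ± 0.11 (SE, adjusted p = 3.1e-07).

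Of 16 Hedgehog pathway genes tested, 6 were lower (7.81% of all loci) and 1 higher (8.60%) in the difference and 9 did not pass, with a median of -0.29. After loss of Prdm16 8 fell (21.1% of all loci) and 3 rose (18.0%), and after loss of the PR domain 2 rose (8.48%). The ligand Shh (chr5:28456815-28467256) stood at 66.8 and 56.4 (Prdm16 control), 16.1 and 18.7 (Prdm16 knockout), 50.7 and 49.5 (PR domain control) and 68.2 and 56.2 (PR domain knockout). The Prdm16 knockout was low, and the PR domain control lay just below the Prdm16 control and the PR domain knockout, with a difference of -2.06 ± 0.33 (SE, adjusted p = 3e-05) in limma and 0.29 ± 0.23 between the controls. The effector Gli3 (chr13:15463235-15730026) had 885 and 900.1 (Prdm16 control), 555 and 634 (Prdm16 knockout), 828 and 798 (PR domain control) and 862 and 849 (PR domain knockout), a difference of -0.66 ± 0.09 (SE, adjusted p = 3.8e-06). The receptor and target Ptch1 (chr13:63508328-63573598) stood at 1278 and 1275 (Prdm16 control), 928 and 925 (Prdm16 knockout), 739 and 699 (PR domain control) and 684 and 666 (PR domain knockout). Its PR domain groups were lower than the Prdm16 control too. By the rule above, its difference of -0.37 ± 0.08 (SE, adjusted p = 0.0018) in limma rested on the controls, unlike that of Shh and Gli3. The Prdm16 knockout libraries of Ptch1 also stood above those of both PR domain groups, so the knockouts were not equal.

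Early embryonic genes, a list of the primed epiblast and streak, fell at 12 of 18 loci after loss of Prdm16 (21.1% of all loci). After loss of the PR domain 6 fell (10.7% of all loci). The summed level of the list was already 484 to 510 in the PR domain control, against 2769 to 2880 in the Prdm16 control. Falls from such low levels are harder to call, so these counts are not on equal terms. In the difference 7 were lower (7.81% of all loci) and 1 higher (8.60%), with a median of -0.84. The Prdm16 control was above the PR domain control at 16 of the 18 (16.7% of all loci), with a median of 2.81. Fgf5, an epiblast growth factor, stood at 129 and 149.5 (Prdm16 control), 40.9 and 44 (Prdm16 knockout), 9.13 and 9.29 (PR domain control) and 11.7 and 15.7 (PR domain knockout). T, the streak factor Brachyury, had 31.8 and 30.1 (Prdm16 control), 1.24 and 3.3 (Prdm16 knockout), 2.03 and 3.1 (PR domain control) and 1.79 and 2.48 (PR domain knockout), so that all groups but the Prdm16 control were near 0. Its difference was not called by DESeq2's Wald test or on the FPKM scale. Dnmt3b, a DNA methyltransferase of the epiblast, fell in both, at -1.05 ± 0.08 and -0.46 ± 0.08. Tdgf1, a Nodal co-receptor, was the higher member, at -1.01 ± 0.18 and -2.11 ± 0.18.

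Of 21 neural progenitor genes, 17 fell after loss of Prdm16 (21.1% of all loci) and 9 after loss of the PR domain (10.7%), with medians of -2.05 and -0.53. In the difference 4 were lower (7.81% of all loci) and 1 higher (8.60%). Sox2 (chr3:34650405-34652461) stood at 253 and 231 (Prdm16 control), 62 and 55 (Prdm16 knockout), 177 and 162 (PR domain control) and 78.9 and 91.8 (PR domain knockout), lower in each knockout than in its control, with effects of -2.03 ± 0.14 (SE, adjusted p = 1.3e-12) and -0.99 ± 0.14 (SE, adjusted p = 4.1e-06) in limma. Lhx2, a forebrain factor, went the other way, at 169.6 and 209 (Prdm16 control), 313 and 298 (Prdm16 knockout), 172 and 165 (PR domain control) and 148 and 169.6 (PR domain knockout), and was on the Prdm16 side. The 13 neuronal genes had a median difference of -0.42, which had the other sign on the FPKM scale and at mean values of at least 50.

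Of 23 cholesterol synthesis genes tested, 13 were higher in the difference (8.60% of all loci) and 10 did not pass, with a median of 0.36. After loss of Prdm16 16 rose (18.0% of all loci), and after loss of the PR domain 2 rose (8.48%) and 6 fell (10.7%). By the rule above, 9 of the 13 rested on the knockouts (43.6% of all loci called in the difference) and 4 on both pairs (14.2%). The control sets differed as well, with 15 of the 23 higher (16.7% of all loci) and 1 lower (16.3%) in the Prdm16 control and a median of 0.31. Between the knockouts 22 were higher (18.7% of all loci), with a median of 0.65. Hsd17b7, a sterol reductase (chr1:169949535-169969241), stood at 313 and 294 (Prdm16 control), 588 and 629 (Prdm16 knockout), 348 and 364 (PR domain control) and 283 and 309 (PR domain knockout). The Prdm16 knockout was high and the other 3 groups lay closer together, with effects of 1.00 ± 0.08 (SE, adjusted p = 4.6e-11) and -0.26 ± 0.08 (SE, adjusted p = 0.023) in limma. Hmgcs1, which makes HMG-CoA, had 2532 and 2666 (Prdm16 control), 3294 and 3370.0 (Prdm16 knockout), 2402 and 2449 (PR domain control) and 2105 and 2248 (PR domain knockout), a difference of 0.52 ± 0.06 (SE, adjusted p = 4.1e-07). Insig1, a sterol-regulated brake on the pathway, differed by 0.80 ± 0.11 (SE, adjusted p = 5.9e-06), and Srebf2, the main transcription factor of the pathway, by 0.39 ± 0.06 (SE, adjusted p = 5.7e-05).

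Of 31 hypoxia and glycolysis genes tested, 16 were higher (8.60% of all loci) and 1 lower (7.81%) in the difference, with a median of 0.30. After loss of Prdm16 20 rose (18.0% of all loci), against 6 after loss of the PR domain (8.48% of all loci). Of the 17 called in the difference, 11 rested on the knockouts, against 43.6% of all loci so called. Aldoa, a glycolytic aldolase (chr7:126795234-126800751), stood at 5729 and 5782 (Prdm16 control), 7851 and 7400.2 (Prdm16 knockout), 5638 and 5568 (PR domain control) and 5433 and 5644 (PR domain knockout), with the Prdm16 knockout high, the other 6 libraries between 5433 and 5782, and a difference of 0.42 ± 0.05 (SE, adjusted p = 3.9e-07) in limma. Ndrg1, which is induced by low oxygen, had 329.7 and 345 (Prdm16 control), 944 and 984 (Prdm16 knockout), 433 and 478 (PR domain control) and 551 and 540.1 (PR domain knockout). It rose in both knockouts, by 1.51 ± 0.07 and 0.26 ± 0.07. Genes of protein and heat stress had 9 of 23 higher (8.60% of all loci) and 2 lower (7.81%) in the difference. Of these, 9 rested on the knockouts (43.6% of all loci called in the difference). Xbp1, a factor of the unfolded protein response, stood at 705 and 675 (Prdm16 control), 1019.9 and 1069 (Prdm16 knockout), 734 and 690.5 (PR domain control) and 720.4 and 708 (PR domain knockout), with effects of 0.60 ± 0.06 (SE, adjusted p = 4.3e-09) and 0.00 ± 0.06 (SE, adjusted p = 0.98) in limma.

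Markers of visceral and yolk sac endoderm, cells with active lipid metabolism and secretion, were raised in both knockouts. The medians of the cholesterol, hypoxia and stress lists were 0.32, 0.22 and 0.03 after loss of Prdm16, and each was -0.02 after loss of the PR domain. The summed level of the endoderm markers was 62314 to 64543 in the Prdm16 control, 127079 to 127271 in the Prdm16 knockout, 14188 to 14523 in the PR domain control and 23835 to 24429 in the PR domain knockout. Their part in the cholesterol, hypoxia and stress results was not tested. Of the 33 endoderm genes tested, 25 rose after loss of Prdm16 (18.0% of all loci) and 28 after loss of the PR domain (8.48%), with medians of 0.97 and 0.88. In the difference 11 were higher (8.60% of all loci) and 7 lower (7.81%). Afp, an albumin relative secreted by yolk sac, stood at 5158 and 5438 (Prdm16 control), 13625 and 13685 (Prdm16 knockout), 2128 and 2132 (PR domain control) and 2869.9 and 2935 (PR domain knockout) and rose by 1.37 ± 0.04 and 0.45 ± 0.04. Spink1, a protease inhibitor, rose by 0.42 ± 0.06 and 1.24 ± 0.06, the other order. Apoa1, an apolipoprotein, was of the shared class, at 1.30 ± 0.06 and 1.17 ± 0.06.

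**Figure D4:**
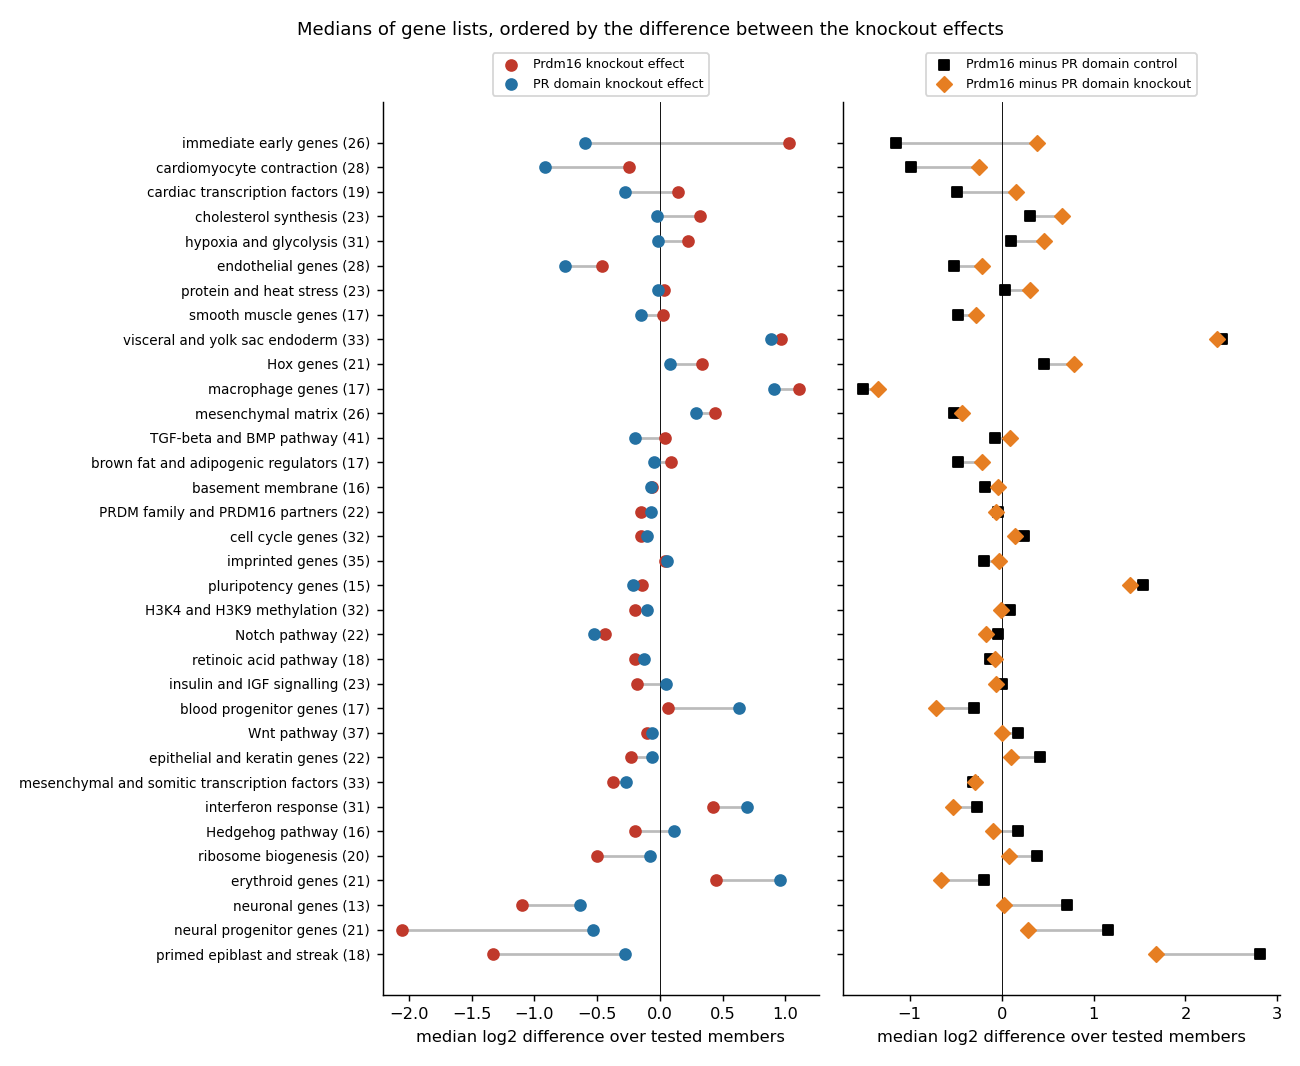
Median log2 difference over the tested members of each gene list (number in brackets), for the knockout effects on the left and for the differences between control sets and between knockout groups on the right. For immediate early genes the effects have medians of 1.03 and -0.60, the control sets differ by -1.15 and the knockouts by 0.39; for cholesterol synthesis the controls differ by 0.31 and the knockouts by 0.65.

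Blood genes included members of every class. Of 21 erythroid genes, 11 rose after loss of Prdm16 (18.0% of all loci) and 12 after loss of the PR domain (8.48%), with medians of 0.45 and 0.95. In the difference 2 were higher (8.60% of all loci) and 5 lower (7.81%). Hbb-y, an embryonic beta-like globin (chr7:103851749-103853216), stood at 2791 and 2782 (Prdm16 control), 2339 and 2252 (Prdm16 knockout), 3814 and 3691 (PR domain control) and 7056 and 7214 (PR domain knockout). It fell after loss of Prdm16 (-0.28 ± 0.04 (SE, adjusted p = 9.7e-07) in limma) and rose after loss of the PR domain (0.93 ± 0.04 (SE, adjusted p = 2.3e-17)). Hbb-bh1, a neighbouring embryonic globin, instead rose in both, by 1.15 ± 0.04 and 0.95 ± 0.04. Hba-x rose in both but more in the PR domain knockout, by 0.28 ± 0.04 and 0.97 ± 0.04. Globin genes are near-identical in part, so reads may have been split between them.

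Platelet and megakaryocyte genes included several of the PR domain side. Tubb1, a platelet tubulin (chr2:174450695-174457882), stood at 127 and 177 (Prdm16 control), 114 and 145 (Prdm16 knockout), 169 and 122 (PR domain control) and 359 and 372 (PR domain knockout). The PR domain knockout was high and the other 3 groups overlapped. Its PR domain effect was 1.34 ± 0.15 (SE, adjusted p = 3.9e-08) in limma and its difference -1.56 ± 0.21 (SE, adjusted p = 2.5e-06). Gp9, a subunit of the platelet receptor for von Willebrand factor, had 54.1 and 39.5 (Prdm16 control), 45.9 and 42.9 (Prdm16 knockout), 41.6 and 55.7 (PR domain control) and 111 and 115 (PR domain knockout), a difference of -1.27 ± 0.30 (SE, adjusted p = 0.003). Itga2b, the platelet integrin alpha IIb, rose in both knockouts, by 0.31 ± 0.07 and 1.32 ± 0.07. Ppbp, a platelet chemokine, was of the Prdm16 side, at 57.3 and 49.8 (Prdm16 control), 9.93 and 14.3 (Prdm16 knockout), 172 and 157 (PR domain control) and 179 and 175 (PR domain knockout), with effects of -2.07 ± 0.20 and 0.11 ± 0.20. Tal1, a factor of blood progenitors, was on the PR domain side with a difference of -0.85 ± 0.19 (SE, adjusted p = 0.0019). No list of platelet genes had been set up, and these were named by their difference or as blood progenitor genes.

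Macrophage genes rose at 16 of 17 loci after loss of Prdm16 (18.0% of all loci) and at 17 after loss of the PR domain (8.48%), with medians of 1.11 and 0.91. Of these, 7 were of the shared class, and 6 were higher (8.60% of all loci) and 1 lower (7.81%) in the difference. The exception was C1qa, a complement subunit (chr4:136895917-136898803), which stood at 40.3 and 36.7 (Prdm16 control), 53.3 and 30.8 (Prdm16 knockout), 166 and 153 (PR domain control) and 388 and 423 (PR domain knockout). Its Prdm16 effect was 0.08 ± 0.18 (SE, adjusted p = 0.78) in limma and its PR domain effect 1.34 ± 0.18 (SE, adjusted p = 1.4e-06). Ptprc, the leukocyte antigen CD45, rose in both, by 1.56 ± 0.12 and 0.80 ± 0.12. All 17 were lower in the Prdm16 control than in the PR domain control (16.3% of all loci).

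Patterning and matrix genes gave mixed counts. Of 33 mesenchymal and somitic factors, 3 were higher (8.60% of all loci) and 11 lower (7.81%) in the difference, with a median of -0.25. Pax1, a factor of the sclerotome (chr2:147361925-147393295), stood at 173 and 167 (Prdm16 control), 3.72 and 1.1 (Prdm16 knockout), 252 and 259 (PR domain control) and 70.9 and 86.8 (PR domain knockout). It fell in both knockouts, by -5.76 ± 0.25 and -1.69 ± 0.25. Ebf2, a factor of brown fat precursors and mesenchyme (chr14:67233292-67430918), also fell in both, at 105 and 103 (Prdm16 control), 3.72 and 2.2 (Prdm16 knockout), 150.1 and 203 (PR domain control) and 32.3 and 36.4 (PR domain knockout). For both genes the Prdm16 knockout was lowest and the PR domain knockout next, and the groups did not overlap. Of 26 matrix genes, 11 were higher (8.60% of all loci) and 5 lower (7.81%) in the difference. Postn, a matricellular protein, rose by 1.00 ± 0.03 and 0.31 ± 0.03, whereas Col1a2, a type I collagen chain, was on the PR domain side (0.46 ± 0.03 (SE, adjusted p = 2.1e-13) in limma, against 0.04 ± 0.03 for Prdm16).

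Among signalling pathways, TGF-beta and BMP genes had 12 of 41 higher (8.60% of all loci) and 1 lower (7.81%), with a median of 0.15. Id1, a BMP target (chr2:152736251-152737410), was on the PR domain side, at 867 and 909 (Prdm16 control), 876 and 793 (Prdm16 knockout), 783 and 813 (PR domain control) and 423 and 416 (PR domain knockout). The PR domain knockout was low and the other 3 groups lay closer together, with a PR domain effect of -0.93 ± 0.07 (SE, adjusted p = 3.6e-12) in limma and a Prdm16 effect of -0.09 ± 0.07. Smad6, an inhibitory Smad, rose after loss of Prdm16 and fell after loss of the PR domain, at 0.50 ± 0.08 and -0.23 ± 0.08. Wnt pathway genes had 3 of 37 higher (8.60% of all loci) and 8 lower (7.81%), but their median of -0.17 was 0.04 at a mean value of at least 50. Notch genes had 2 of 22 higher (8.60% of all loci) and 4 lower (7.81%), with a median of -0.11. Of the 22, 14 fell after loss of Prdm16 (21.1% of all loci) and 10 after loss of the PR domain (10.7%). Jag1, a Notch ligand, fell in both, at -1.38 ± 0.11 and -0.61 ± 0.11.

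Single loci of large difference included the imprinted gene Grb10, an adaptor of insulin and IGF receptors (chr11:11930508-12038683). It stood at 3869 and 4129.8 (Prdm16 control), 44.7 and 28.6 (Prdm16 knockout), 1399.5 and 1408 (PR domain control) and 2184 and 2068 (PR domain knockout). Its level fell after loss of Prdm16 (-6.76 ± 0.10 (SE, adjusted p = 9.7e-30) in limma) and rose after loss of the PR domain (0.60 ± 0.10 (SE, adjusted p = 4.4e-05)). Of 35 tested imprinted genes, 11 were higher (8.60% of all loci) and 8 lower (7.81%) in the difference. The opposite class held 7 of them, and 7.77% of all loci called in the difference. In the Dlk1 and Meg3 cluster, Dlk1 rose in both knockouts (1.27 ± 0.04 and 0.53 ± 0.04), while the noncoding Meg3, in a locus with further names, fell in the Prdm16 knockout (-0.64 ± 0.03) and rose in the other (0.14 ± 0.03).

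Y-linked genes set the Prdm16 knockout apart from the other 6 libraries. Ddx3y, a Y-linked RNA helicase, stood at 492 and 513 (Prdm16 control), 0 and 0 (Prdm16 knockout), 1029 and 989 (PR domain control) and 1148 and 1147 (PR domain knockout). With 0 fragments in both Prdm16 knockout libraries, it was at least 286-fold lower than in the Prdm16 control, taking 3 fragments per group as the floor. Uty was at least 113-fold and Kdm5d at least 42.3-fold lower on the same floor, and Eif2s3y had 1 fragment in 2 libraries. In the PR domain knockout, Ddx3y and Kdm5d had effects of 0.19 ± 0.12 (SE, adjusted p = 0.32) and 0.12 ± 0.19 (SE, adjusted p = 0.75) in limma. Fitted differences of these loci depend on the added 1 fragment and are no bounds. The Prdm16 control had lower values than the PR domain control for all 4 genes. X-linked Trap1a and Rhox5, known from tumour and germ cells and named for their large differences, rose in the Prdm16 knockout. Rhox5 stood at 77.4 and 69.6 (Prdm16 control), 435 and 410.4 (Prdm16 knockout), 19.3 and 9.29 (PR domain control) and 15.3 and 17.4 (PR domain knockout). Chromosome X as a whole did not stand out, with 16.9% of its 626 loci called in the difference against 16.4% of all loci.

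Loci shared by both knockouts give the contrast to these. Sall1, a zinc finger factor of kidney and limb (chr8:89027235-89044162), stood at 549 and 567 (Prdm16 control), 159 and 166 (Prdm16 knockout), 453 and 476 (PR domain control) and 153 and 152 (PR domain knockout), a difference of -0.17 ± 0.13 (SE, adjusted p = 0.41) in limma with an interval of -0.44 to 0.09. Angptl7, a secreted angiopoietin-like protein, rose by 1.55 ± 0.08 and 1.73 ± 0.08. Slc13a4, a sulfate transporter, rose by 1.33 ± 0.10 and 1.29 ± 0.10 although its controls stood 4.18 apart on the log2 scale. Prex2, a Rac exchange factor, fell, at -1.26 ± 0.12 and -1.18 ± 0.12.

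Apart from the Y chromosome, chromosomes 8 and 19 had the lowest medians in both knockout effects. Among the 521 loci of chromosome 19, the Prdm16 effect had a median of -0.20, with 216 lower and 53 higher (51.6% called against 39.1% of all), and the PR domain effect a median of -0.14, with 125 lower and 40 higher. In the difference the median of chromosome 19 was -0.07, with 27 higher and 59 lower. Among the 837 loci of chromosome 8, the PR domain effect had a median of -0.32, with 402 lower and 21 higher (50.5% called against 19.2% of all), and the Prdm16 effect a median of -0.18, with 310 lower and 80 higher. The log2 level of chromosome 8 was taken as the median over its loci, each relative to its own mean over the 8 libraries. It was 0.04 and 0.05 (Prdm16 control), -0.15 and -0.15 (Prdm16 knockout), 0.22 and 0.22 (PR domain control) and -0.10 and -0.10 (PR domain knockout). In the difference the median of chromosome 8 was 0.11, with 134 higher and 31 lower. Chromosome 8 held 20.5% of the PR domain side, 17.7% of the shared class and 12.3% of the opposite class, against 5.04% of all loci and 1.29% of the Prdm16 side. Copy number was not measured, and its part in these counts was not tested.

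Several genes named above, and further members of the lists, lie on chromosome 8. Their values were taken again with each library centred per chromosome, a choice made after the data were seen. Klf2 kept a difference of 1.13 and a PR domain effect of -0.91, and Sall1 a PR domain effect of -1.28. Junb had a difference of 1.75 and a PR domain effect of -0.79, against 1.87 and -1.11 before. For Hand2, a heart factor with a difference of 0.98 ± 0.09 (SE, adjusted p = 1.3e-09) in limma, the centred PR domain effect was -0.02 (adjusted p = 0.9), so that the value of -0.34 before centring was no longer called. Msmo1, a sterol oxidase of the cholesterol list, likewise had -0.08 (adjusted p = 0.39) in place of -0.40. The type IV collagen genes Col4a1 and Col4a2 kept centred PR domain effects of -0.39 and -0.30, against -0.71 and -0.62 before.

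**Figure D5:**
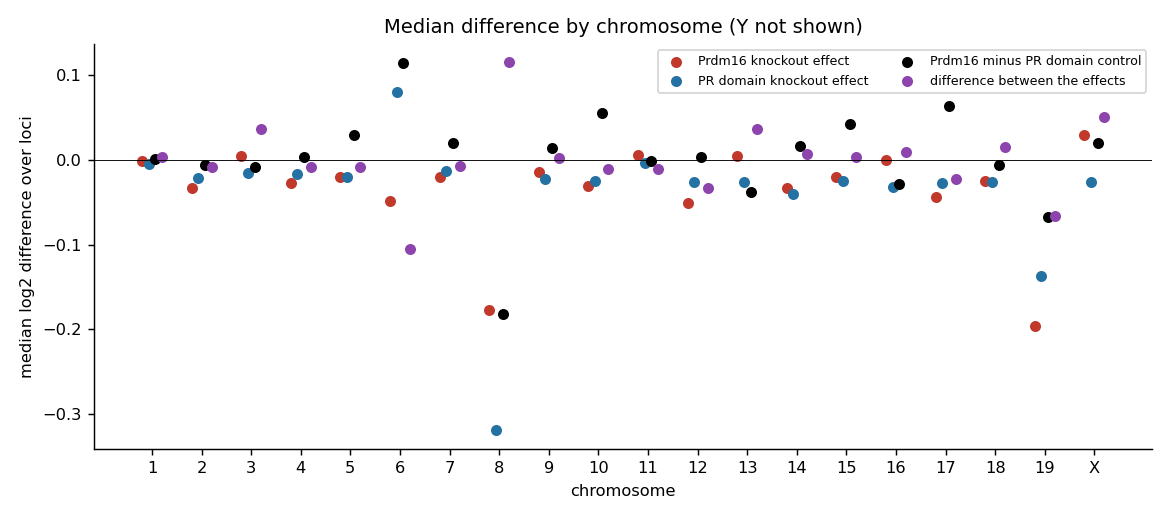
Median log2 difference over the tested loci of each chromosome, for both knockout effects, the difference between control sets and the difference between the effects. Chromosome 8 stands at -0.32 in the PR domain effect and 0.11 in the difference; chromosome 6 stands at -0.11 in the difference.

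Of 86 loci named in the text or among those of largest difference and called in the difference, 40 were also called on the FPKM scale. Of the early response genes these were Fos, Fosb, Egr1, Junb, Zfp36, Btg2, Atf3, Arc, Klf2 and Maff, and of the heart genes Myom1, Actc1 and Hand2. They also included Hsd17b7, Ndrg1, Id1, Smad6, Shh, Postn, Hbb-y, Hba-x, Spink1, Ppbp, Pax1, Grb10, Dlk1, Meg3, Rhox5, Trap1a and the Y-linked genes. Differences of the remaining 46, among them Egr2, Actn2, the Myh6 and Myh7 locus, Tbx20, Hand1, Sox17, Mecom, Kmt2a, Nop2, Gli3, Ptch1, Hmgcs1, Insig1, Aldoa, Xbp1, Tubb1, Gp9, Itga2b, C1qa and Ebf2, were not.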

How the data were processed

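RNA-seq was measured in 8 libraries of embryoid bodies on day 9, grouped by their titles into 4 groups of 2. Per the submitters' processing notes, TopHat2 2.1.1, SAMtools 1.5, Cufflinks 2.2.1 and deepTools were used with mm10, with no role or order given. The annotation release and whether counting used strand were not given in the sources used here. Overlapping and antisense genes therefore cannot be told apart. The deposited table holds signal values, which the authors made by dividing fragments per locus by a factor per library, as the values themselves show. Dividing by each library's step gave whole fragments for 100.0% of values (at least 99.9962% in every library, tolerance 0.1). The authors also deposited FPKM values, scaled for length and library size per the file headers, which served as an alternative. Of 53068 distinct loci, 787 had no gene name and held 1.88 to 2.53% of fragments, and these stayed out. Of the 52281 named loci, 1390 carried 2 or more names. Coordinates are from GENCODE M21 (mm10).

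The main test was limma-trend 3.58.1 in R 4.3.3 on log2(value + 1), which understates changes of low loci, with a model of the 4 group means over all 8 libraries (4 residual and 25.4 prior degrees of freedom). Values after ± are standard errors of 2 against 2 libraries, or of the difference of 2 such effects, and adjusted p-values are Benjamini-Hochberg values from limma over all 16623 loci. Raw counts were planned for, but the files hold normalised values, so edgeR 4.0.16 on the recovered fragments became an alternative. It called 2875 loci in the difference, 6470 in the Prdm16 effect and 3418 in the PR domain effect. DESeq2 1.42.0 was run on them as well. The code was tested on simulated data.

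The comparison, the 35 gene lists and the rule for named genes were chosen with earlier results of these data known. The rule took Prdm16 and Mecom, the 12 loci with the largest difference per direction at a mean value of at least 50 with 1 protein-coding name, the 6 largest per class and direction, up to 5 members per list by adjusted p, and the Y-linked genes. Other genes named were chosen after their values were seen: Dusp1, Srf. Some loci that met the rule are not reported here. Intervals are at 95%. Promoter windows were RefSeq's. Alternatives covered pseudocount, filter, scaling, test, unit, margin, left-out libraries, the replicate block and chromosome centring.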

Additional observations from a re-analysis of the deposited data

Results flagged for a closer look

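The effects of the 2 knockouts differed by the test of the difference itself at 2728 loci, and 212 of these had called effects of opposite sign. The loci below are among the 12 with the largest differences in each direction among those with a mean value of at least 50 and a single protein-coding name, on the log2 scale.

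Higher in the Prdm16 effect was Cdhr2, an intestinal and renal brush border cadherin, with a difference of 4.12. Trap1a differed by 4.03, Slc23a1, a vitamin C transporter, by 2.44 and Nostrin, a binding protein of endothelial nitric oxide synthase, by 2.29. For Rhox5 the difference was 2.25, for Arhgap20 2.13, for the heart and stem cell cofactor Hopx 2.13 and for Fmr1nb 2.09. Among early response genes, Arc differed by 2.42, Ptgs2 by 2.12, Atf3 by 2.12 and Egr3 by 2.09. Cdhr2 stood at 39.2 and 45.1 (Prdm16 control), 334 and 354 (Prdm16 knockout), 10.1 and 4.13 (PR domain control) and 3.59 and 1.65 (PR domain knockout). Hopx stood at 130.4 and 98.8 (Prdm16 control), 211 and 197 (Prdm16 knockout), 90.3 and 97 (PR domain control) and 32.3 and 43.8 (PR domain knockout), with the Prdm16 knockout highest and the PR domain knockout lowest.

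Those lower were led by Y-linked genes, with fitted differences of -9.16 for Ddx3y, -8.68 for Eif2s3y, -7.82 for Uty and -6.34 for Kdm5d. These fitted values depend on the added 1, since the Prdm16 knockout had 0 or 1 fragments. Grb10 differed by -7.36, Pax1 by -4.07 and Macc1, a regulator of MET, by -3.43. For Irs4, an insulin receptor substrate, the difference was -2.64, for Ebf2 -2.44 and for Ildr2 -2.43. Pga5, a pepsinogen, had a fitted difference of -4.97 and stood at 209 and 223 (Prdm16 control), 55.8 and 46.2 (Prdm16 knockout), 0 and 0 (PR domain control) and 9.87 and 4.14 (PR domain knockout), so a control group was at 0. Irs4 stood at 311 and 327 (Prdm16 control), 54.6 and 58.3 (Prdm16 knockout), 11.2 and 12.4 (PR domain control) and 12.6 and 14.1 (PR domain knockout), so that both PR domain groups were low from the start. Ildr2 fell in the Prdm16 knockout (-1.37 ± 0.18) and rose in the PR domain knockout (1.06 ± 0.18).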

How the results depend on the processing

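Counts of loci in the difference, the Prdm16 effect, the PR domain effect, the control sets and the knockout groups stayed within 1.5 times of those reported under other pseudocounts, TMM, total-fragment and DESeq2 scaling, edgeR, limma-voom and a mean value of at least 50. They were lower, in that order, at 1189, 3983, 1794, 3388 and 3935 with DESeq2's Wald test, at 199, 2244, 582, 1717 and 2210 on log2(FPKM + 1), and at 169, 683, 221, 761 and 1019 when tested against a fold of 1.5. Without a filter the difference gave 1642. The cause was not tested. With a margin of 2-fold, 262 loci were unplaced, 187 differed in both pairs with neither interval inside it, and 201 met none of these rules. Leaving out 1 library at a time gave 1950 to 2390 loci in the difference, 196 to 285 on the PR domain side, 254 to 367 graded and 776 to 1010 with like controls and unequal knockouts. Over all alternatives the range of the median difference included 0 for 10 of 35 lists (blood progenitor, neuronal, pluripotency, Wnt, retinoic acid, cell cycle, PRDM family, brown fat, imprinted and epithelial genes). Of these, the reported median was larger than the median standard error of the members for neuronal genes (0.0584 at a mean value of at least 50, 0.0675 on FPKM) and for epithelial and keratin genes (0.0139 at that mean value).

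Deviations of same-numbered libraries correlated at -0.036 to 0.031 between groups over all loci and at -0.18 to 0.13 over loci with a mean value of at least 50. Not every pair passed 0.1, so the numbers were not taken to pair the libraries, and with a replicate block 2686 loci were called in the difference. Chosen after the data were seen, centring per chromosome gave 2678 and leaving out chromosomes 6, 8, 19 and Y gave 2255. Of the 86 named loci called in the difference, 46 did not pass on FPKM and 3 did not pass with DESeq2's Wald test. With 2 libraries a group, small differences at loci of few fragments could not be resolved, and low loci such as Prdm16 are limited by their depth.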
